A study of Mus musculus with 6 samples.

Results

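Matrix metalloproteases (MMPs), ADAM and ADAMTS proteases and the tissue inhibitors of metalloproteases (TIMPs) were measured in 6 cultures labelled as primary mouse aortic endothelial cells. The list of these genes held 35 names from these families, but not every member of them. It was chosen with earlier results of these data known. Of the 35 names, 33 had a probe set that the array annotation assigns to that gene alone. Mmp15 and Adamts2 had no such probe set and are not analysed here. Each of the 33 genes was read by its brightest probe set, out of 18193 genes read in that way, and 28 of the 33 reached the level needed for testing.

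The 3 non-transgenic cultures came from C57 mice without the transgene, and the 3 transgenic cultures from C57 mice that carry dominant negative human PPARG with the V290M change, expressed from the vascular endothelial cadherin (CDH5) promoter. PPARG, a transcription factor of the nuclear receptor family, drives genes of fat storage and lipid metabolism when lipids bind to it. No culture received a treatment, and the sources used here do not give the age of the mice. Each culture held the cells of 2 mice and stayed separate from the others, and 3 of the 5 cultures grown per group were put on arrays, so that n = 3 in each group.

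MMPs are secreted or membrane-bound zinc proteases that cut collagens, proteoglycans and other matrix proteins, and they are made as inactive precursors. ADAMs sit in the cell membrane and release the outer part of growth factor precursors, cytokines and receptors. ADAMTS proteases are secreted and several of them cut the large proteoglycans versican and aggrecan of the vessel wall. TIMPs bind the active site of MMPs, and some of them also that of certain ADAM and ADAMTS proteases. Net proteolysis thus depends on enzymes and inhibitors.

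The stromelysins Mmp3 and Mmp10 and the collagenase Mmp13, described below, are neighbours on mouse chromosome 9, and the region before each annotated start is shown because these 3 genes had their highest values in the same 2 cultures. The 120 bases before the start are given 5′ to 3′ on the plus strand, from RefSeq, assembly GRCm38.p6, at chr9:7445702-7445821 for Mmp3, chr9:7502222-7502341 for Mmp10 and chr9:7272394-7272513 for Mmp13. Capitals mark the AP-1 word (TGAGTCA or its reverse complement TGACTCA) and the TATA word TATAAA.
Mmp3: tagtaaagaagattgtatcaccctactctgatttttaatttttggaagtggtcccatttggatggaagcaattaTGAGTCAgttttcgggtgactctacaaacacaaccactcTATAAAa
Mmp10: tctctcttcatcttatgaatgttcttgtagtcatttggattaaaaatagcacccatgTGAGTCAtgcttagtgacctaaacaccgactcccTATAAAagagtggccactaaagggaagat
Mmp13: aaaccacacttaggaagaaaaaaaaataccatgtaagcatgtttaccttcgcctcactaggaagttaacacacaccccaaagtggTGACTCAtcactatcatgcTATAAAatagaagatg

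The AP-1 word began 46, 63 and 35 bases before the annotated start of Mmp3, Mmp10 and Mmp13. The TATA word began 7, 29 and 16 bases before that start, and 32, 27 and 12 bases lay between the words. The positions of the annotated starts were not tested here. RefSeq windows of 300 bases (250 before and 50 after the start) were matched to 22 of the 35 genes, in 25 windows. Both words, searched on both strands, were in the windows of Mmp3, Mmp10 and Mmp13 and of no other gene of the list with a window. The AP-1 word was also in 1 of the 3 windows of Adam19, and the TATA word in the window of Adamts1. Over all 32851 windows, 5.2% held the AP-1 word, 13.6% the TATA word and 0.941% both. The AP-1 word is known as the binding sequence of Fos and Jun factors. A match in these letters is a description of the window and does not show binding.

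Levels are given as log2(signal + 16), in the order of replicates 1, 2 and 3 of each group, and differences are transgenic minus non-transgenic on that scale, where dim genes show less than their full change. Transgenic replicate 3 resembled the non-transgenic arrays more than those of its own group, with mean rank correlations over tested genes of 0.972 and 0.907. The median signal of all probe sets was 219.9 to 222.9 on the non-transgenic and 173 to 186.1 on the transgenic arrays. For the Gapdh controls the signal at the 3' end over that at the 5' end, which tells how evenly a transcript is covered, was 1.51 to 1.71 on the non-transgenic and 1.20 to 1.44 on the transgenic arrays, and was lowest in transgenic replicate 2 (two-sided exact permutation test, p = 0.1, which is the lowest value possible with 3 against 3). The beta-actin ratio overlapped between the groups, at 1.83 to 2.17 against 1.40 to 2.21 (two-sided exact permutation test, p = 0.5). The part of these ratios in the differences below was not tested. Every main difference is therefore given with all 6 arrays and, where it changes the call, without transgenic replicate 3.

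Of the 28 tested genes, 0 differed between the groups with all 6 arrays (limma, Benjamini-Hochberg adjusted p of 0.428 to 0.987), as did 0 of all 11208 genes tested (0%). At an unadjusted p under 0.05 there were 2 higher and 4 lower genes of the 28, which is 7.14% and 14.3%, against 6.47% and 5.02% of all tested genes. The higher ones were Mmp3 and Timp1, and the lower ones Adam23, Adam33, Adamts5 and Adamts9. This count of 6 was 3 without non-transgenic replicate 1, and 2 without any one of non-transgenic replicate 2 and transgenic replicates 1 and 2. For these fits no count over all genes is given, so the numbers describe the list alone. Without transgenic replicate 3 the count was 13, with 4 higher, Mmp10 among them, and 9 lower. Over all 11208 tested genes that fit gave 1591 higher and 2052 lower at the same threshold. With all 6 arrays the groups did not overlap for 1 gene that lay higher, Mmp16. They did not overlap either for 5 that lay lower, Adam23, Adam33, Adamts5, Adamts9 and Adamts15. These are 3.57% and 17.9% of the 28, against 9.39% and 6.72% of all tested genes. The median difference was -0.07 over the 28 genes and -0.02 over all tested genes, and the median size of a difference was 0.40 and 0.24. Mmp10 reached the test only through its transgenic cultures, and without it the median of the other 27 was -0.09.

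Transgenic replicate 3 resembled the non-transgenic arrays, so leaving it out widens differences by construction. In that fit limma called 10 of the 28, 4 higher and 6 lower. These are 14.3% and 21.4% of the list, against 6.88% and 7.83% of all tested genes. The higher ones were Mmp3, Mmp10, Mmp19 and Timp1, and the lower ones Mmp2, Mmp11, Adam33, Adamts5, Adamts9 and Adamts15. In the same fit the groups did not overlap for 7 higher and 11 lower genes of the 28. These are 25% and 39.3% of the list, against 22.8% and 27.4% of all tested genes. Mmp10, which reached the test only through its transgenic cultures, is among the higher genes in both counts. Of the other 27 genes, 3 were called higher and 6 lower, and 6 higher and 11 lower did not overlap. For the 10 called genes transgenic replicate 3 lay on the called side of the non-transgenic mean in 5, with a median shift of 0.03 in that direction, while the median size of their differences without it was 0.86. Over all genes called in that fit the share was 53.9%, against 50% here, and the median shift 0.04. It lay inside the non-transgenic range for 17 of the 28 genes (60.7%), against 39.2% of all tested genes.

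**Figure D1:**
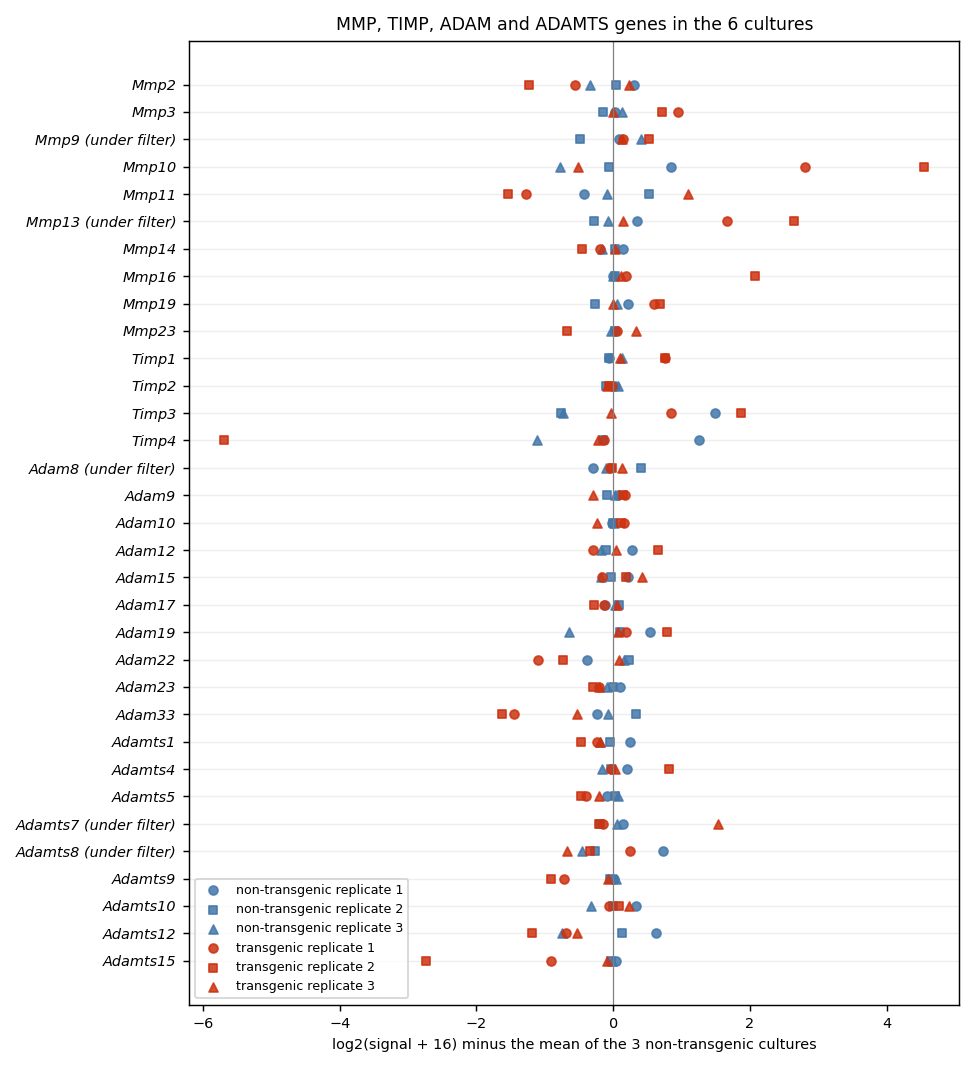
Level of each of the 33 genes in the 6 cultures, as log2(signal + 16) minus the mean of the 3 non-transgenic cultures (x axis, log2 units); blue marks are non-transgenic and red marks transgenic cultures, and the shape gives the replicate. Transgenic replicates 1 and 2 lie apart from the blue marks for Mmp3, Mmp10, Mmp13, Timp1, Adam33, Adamts9 and Adamts15, while transgenic replicate 3 (red triangle) lies inside the non-transgenic range for 17 of the 28 tested genes.

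Among the secreted MMPs, the stromelysins Mmp10 and Mmp3 had the highest differences with all arrays among those tested. Mmp10, which cuts proteoglycans, fibronectin and other proenzymes, was at 7.87, 6.97 and 6.25 in non-transgenic and at 9.83, 11.58 and 6.51 in transgenic cultures. Its signals were 217, 109 and 59.9 against 896, 3050 and 74.9, so that it was high in 2 cultures and, in the third, inside the non-transgenic range. The difference was 2.28 ± 1.15 (SE, n = 3 per group, limma adjusted p = 0.454), 3.68 ± 0.60 without transgenic replicate 3 (limma adjusted p = 0.0103) and 1.14 without transgenic replicate 2. Only 3 of the 6 arrays had Mmp10 above the level filter of 7.72, and its mean of 7.03 in the non-transgenic cultures lay under it. The gene was thus tested only because of the group in which it was high, and its call supports no direction for the list.

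Mmp3, the stromelysin that fibroblasts and inflamed vessels are known to release, had a smaller difference than Mmp10. It was at 14.17, 14.00 and 14.28 in non-transgenic and at 15.09, 14.86 and 14.14 in transgenic cultures. The first pair of transgenic cultures lay above every non-transgenic one, and the third lay among them. With all arrays the difference was 0.54 ± 0.23 (SE, limma adjusted p = 0.43), with a 95% interval of 0.01 to 1.07, and it was 0.82 ± 0.12 without transgenic replicate 3 (limma adjusted p = 0.00718) and 0.35 without transgenic replicate 1.

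Mmp13, the main interstitial collagenase of the mouse, lay under the level filter by its mean, with 1 array above it, and was not tested. Its levels of 5.68, 5.05 and 5.26 against 7.0, 7.97 and 5.48 had, like Mmp10, transgenic replicate 2 highest and transgenic replicate 1 next. The mean difference was 1.49, with 2.16 without transgenic replicate 3 and 0.91 without transgenic replicate 2. These are signals of 17.2 to 35.4 in the non-transgenic cultures against 112, 235 and 28.5 in the transgenic ones. The 3 upstream sequences above were chosen knowing that transgenic replicates 1 and 2 were the highest for Mmp3, Mmp10 and Mmp13. These cultures were also the highest for other genes of the list, Timp1, Adam10 and Mmp19 among them. The windows of Timp1 and Adam10 hold neither word, and Mmp19 had no window.

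Mmp2 and Mmp11 lay lower in the same pair of cultures. Mmp2, gelatinase A, which cuts denatured collagen and type IV collagen, was at 13.98, 13.73 and 13.34 against 13.13, 12.45 and 13.92. Transgenic replicates 1 and 2 lay below every non-transgenic culture, and replicate 3 was the second brightest of all 6. The difference was -0.52 ± 0.35 (SE, limma adjusted p = 0.551), and -0.89 ± 0.24 without transgenic replicate 3 (limma adjusted p = 0.0473), but -0.16 without transgenic replicate 2. The second probe set of Mmp2 had a difference of -0.51. Mmp11, stromelysin-3, a protease that furin activates inside the cell, was at 10.17, 11.11 and 10.50 against 9.32, 9.05 and 11.68. Here transgenic replicate 3 was the highest of all cultures while the other transgenic cultures were the lowest. The difference was -0.58 ± 0.66 with all arrays (SE, limma adjusted p = 0.73) and -1.41 ± 0.31 without replicate 3 (limma adjusted p = 0.0235). It was -0.09 without transgenic replicate 2, -0.23 without transgenic replicate 1 and -0.32 without non-transgenic replicate 2. Mmp9, gelatinase B, a protease of neutrophils and macrophages, lay under the filter on all 6 arrays, with levels of 5.77 to 6.78.

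Mmp14, the membrane-type protease that activates proMMP2 together with Timp2, was at 12.55, 12.42 and 12.23 against 12.21, 11.94 and 12.42, a difference of -0.21 ± 0.18 (SE, 95% interval -0.63 to 0.21, limma adjusted p = 0.639). Its group ranges overlapped, and its other 2 probe sets differed by -0.11 and -0.06. Mmp16, another membrane-type protease, was at 8.27, 8.30 and 8.27 in non-transgenic and at 8.46, 10.36 and 8.40 in transgenic cultures. The non-overlap of Mmp16 noted above thus rested on very small differences of replicates 1 and 3 from a tight non-transgenic range, while replicate 2 alone was high. The difference was 0.79 ± 0.52 (SE, limma adjusted p = 0.541), and 0.15 without replicate 2. Its other probe set above the filter differed by 0.15, with overlap.

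Mmp19, a soluble MMP found in vessels, was at 13.97, 13.50 and 13.81 against 14.36, 14.45 and 13.75. Transgenic replicates 1 and 2 lay above the non-transgenic range and replicate 3 inside it. Its difference was 0.43 ± 0.21 with all arrays (SE, limma adjusted p = 0.449) and 0.64 ± 0.15 without transgenic replicate 3 (limma adjusted p = 0.0272), and the second probe set differed by 0.87. Mmp23, at 13.83, 13.83 and 13.77 against 13.87, 13.14 and 14.15, had transgenic cultures on both sides of a narrow non-transgenic range (difference -0.09 ± 0.24, SE, limma adjusted p = 0.893).

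The inhibitors ranged from the steadiest to the most variable gene of the list. Timp2, which also takes part in proMMP2 activation, spanned only 0.18 over the 6 arrays, at 14.81, 14.68 and 14.85 against 14.76, 14.72 and 14.69. The difference was -0.06 ± 0.09 (SE, 95% interval -0.26 to 0.15, limma adjusted p = 0.793). It has 6 probe sets, all above the filter, and the 2 dimmest of them differed in the opposite direction, by 0.25 and 0.05. On another one, at -0.18, the transgenic cultures lay below without overlap.

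Timp1, an inducible inhibitor that responds to growth factors and cytokines, was at 14.52, 14.51 and 14.70 in non-transgenic and at 15.33, 15.33 and 14.67 in transgenic cultures. Transgenic replicates 1 and 2, with signals of 41100 each against 23300 to 26700, lay above all others, and replicate 3 lay inside the non-transgenic range. With all arrays the difference was 0.53 ± 0.18 (SE, 95% interval 0.11 to 0.95, limma adjusted p = 0.428), and without replicate 3 it was 0.75 ± 0.09, or 1.68-fold (limma adjusted p = 0.00499), the smallest adjusted p of the list in that fit. The same pair of cultures was highest for Mmp3, a protease which Timp1 inhibits. Whether the balance of proteolysis differed is not measured by these arrays.

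Timp3, the inhibitor that binds to the matrix and also blocks Adam17 and the aggrecan-cutting ADAMTS proteases, varied within both groups. It was at 13.22, 10.97 and 10.99 against 12.57, 13.60 and 11.69. Non-transgenic replicate 1 and transgenic replicates 1 and 2 were high and the other 3 cultures low, so that the groups overlapped. The difference of 0.89 ± 0.68 (SE, limma adjusted p = 0.592) was no larger than the non-transgenic SD of 1.29. All 4 of its probe sets showed the same high and low cultures, with differences of 0.89 to 1.27.

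Timp4, an inhibitor of heart, vessels and fat tissue, spanned 6.95 over the arrays, the widest range of the 33 genes. It was at 13.18, 11.77 and 10.81 in non-transgenic and at 11.79, 6.23 and 11.70 in transgenic cultures. Transgenic replicates 1 and 3 lay inside the non-transgenic range, and replicate 2 was far below it, with a signal of 59.1 against 1780 to 9280 on the other 5 arrays. The difference of -2.01 ± 1.42 (SE, limma adjusted p = 0.567) thus rested on 1 culture and was -0.17 without it, and the second probe set had the same lowest culture, at 7.17 against 9.23 to 11.44. Genes of fat cells had the same highest and lowest culture, but the order of the cultures in between was not the same. Their mean level over 8 markers, relative to the non-transgenic mean, was 1.15, -0.51 and -0.63 in non-transgenic and -1.58, -2.96 and -0.76 in transgenic cultures, and their summed signal ran from 64500 to 97600 and from 28300 to 52500. The part of fat cells in the Timp4 values was not tested. In such bulk cultures fewer cells of a type and less RNA per cell cannot be told apart.

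**Figure D2:**
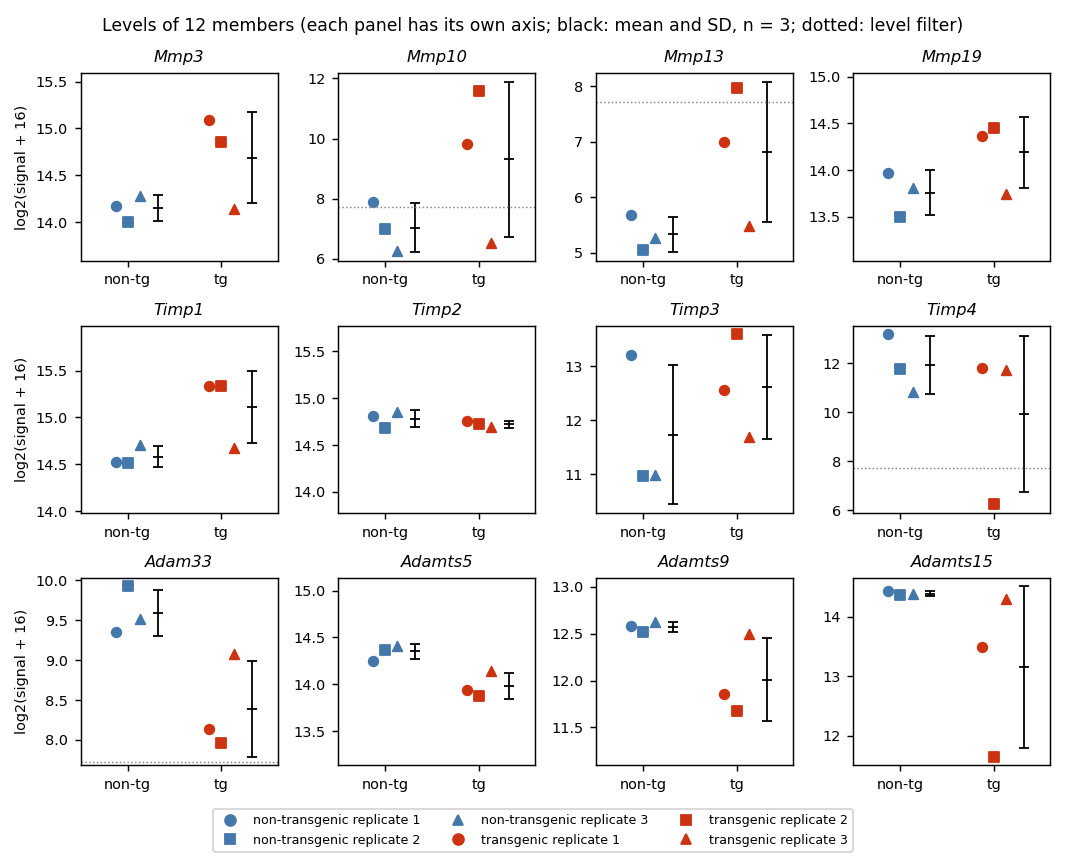
Levels of 12 genes as log2(signal + 16), each panel with its own axis; points are cultures (blue non-transgenic, red transgenic, shape by replicate), black bars give the mean and SD (n = 3), and the dotted line is the level filter of 7.72. Mmp3, Mmp10, Mmp13, Mmp19 and Timp1 have transgenic replicates 1 and 2 on top, Timp2 spans 0.18 over all cultures, and Timp4 is low in transgenic replicate 2 alone.

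The ADAM sheddases were mostly level between the groups. Adam10, which starts Notch cleavage and sheds cadherins, was at 13.93, 13.94 and 13.96 against 14.10, 14.06 and 13.70, a difference of 0.01 ± 0.13 (SE, 95% interval -0.29 to 0.32, limma adjusted p = 0.98). Adam9 was at 14.40, 14.25 and 14.36 against 14.51, 14.48 and 14.04, with the same arrangement and a difference of 0.01 ± 0.14 (SE, 95% interval -0.32 to 0.33, limma adjusted p = 0.987). In both genes transgenic replicates 1 and 2 lay just above and replicate 3 just below the non-transgenic cultures. Adam17, the enzyme that releases TNF and EGF receptor ligands, was at 12.19, 12.40 and 12.34 against 12.18, 12.03 and 12.37 (difference -0.12 ± 0.16, SE, 95% interval -0.49 to 0.26, limma adjusted p = 0.778). The dimmest of its 3 probe sets showed a larger difference, at 7.97, 8.15 and 8.19 against 7.42, 7.16 and 7.54. All 3 transgenic cultures lay below the non-transgenic ones there, by -0.73 ± 0.25 (SE). That probe set was not called when 22519 probe sets were tested singly (limma adjusted p = 0.253). On the middle probe set the transgenic cultures also lay below without overlap, by -0.13 (limma adjusted p = 0.74).

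Adam12 and Adam19, the meltrins, were highest in transgenic replicate 2, at 12.02 and 12.44. Their other levels were 11.07 to 11.64 and up to 12.19, and their differences 0.14 ± 0.28 and 0.35 ± 0.33 (SE, limma adjusted p = 0.848 and 0.664). Adam15, an ADAM of endothelial cell junctions, was at 12.43, 12.18 and 12.03 against 12.05, 12.40 and 12.64. Its 4 probe sets did not read alike, with differences of 0.15, -0.03, 0.58 and 0.92, the first being the brightest. Adam8, a leukocyte protease, lay under the filter on all arrays, at 6.98 to 7.67.

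Adam33, an ADAM of smooth muscle and fibroblasts, had the largest difference among the tested ADAMs, and it was negative. It was at 9.35, 9.92 and 9.51 in non-transgenic and at 8.14, 7.96 and 9.07 in transgenic cultures. No transgenic culture, not even replicate 3, reached the lowest non-transgenic one. The difference was -1.20 ± 0.36 (SE, 95% interval -2.04 to -0.36, limma adjusted p = 0.428), or 2.3-fold, and -1.54 ± 0.28 without transgenic replicate 3 (limma adjusted p = 0.0134). On its second probe set the difference was -0.62 and replicate 3, at 9.66, was the highest of all cultures, with only replicates 1 and 2 below the non-transgenic range.

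Adam22 and Adam23 are ADAMs without protease activity that act in cell adhesion and as receptors of LGI proteins. Adam22 was at 10.10, 10.71 and 10.64 against 9.39, 9.75 and 10.57, with transgenic replicates 1 and 2 below the other 4 cultures (difference -0.58 ± 0.35, SE, limma adjusted p = 0.516). The difference was -0.32 without transgenic replicate 1. The gene was not called without replicate 3 either, at -0.91 ± 0.27 (limma adjusted p = 0.0594). Adam23 was at 14.67, 14.57 and 14.48 against 14.37, 14.28 and 14.37, where all 3 transgenic cultures lay just below. That difference of -0.24 ± 0.09 (SE, limma adjusted p = 0.428) had a counterpart of -0.84 on the dimmest probe set and of 0.13, the opposite sign, on the middle one.

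The proteoglycan-cutting ADAMTS proteases included 3 of the 5 genes that lay lower without overlap. Adamts5, the main aggrecanase of the mouse, which also cuts versican, was at 14.25, 14.37 and 14.41 against 13.94, 13.87 and 14.14. All transgenic cultures lay below all non-transgenic ones, with replicate 3 nearest to them. The difference was -0.36 ± 0.11 (SE, 95% interval -0.62 to -0.11, limma adjusted p = 0.428), or 1.29-fold, and -0.44 ± 0.10 without replicate 3 (limma adjusted p = 0.0277). Of its 4 probe sets the 2 brightest gave -0.36 and -0.39 without overlap, and the other 2 gave -0.06 and -0.04 with overlap.

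Adamts9, a versicanase of the endothelium and developing vessels, was at 12.58, 12.52 and 12.62 against 11.86, 11.67 and 12.50. Replicates 1 and 2 of the transgenic group were clearly low, while replicate 3 lay just under the lowest non-transgenic culture. The difference was -0.56 ± 0.23 (SE, limma adjusted p = 0.428), and -0.81 ± 0.15 without replicate 3 (limma adjusted p = 0.0142). A dimmer probe set of the gene differed by -1.51, with overlap, as transgenic replicate 3 at 8.66 lay above non-transgenic replicate 1 at 8.61.

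Adamts15, an aggrecanase and versicanase, had the tightest non-transgenic values of the proteoglycanases and the widest transgenic ones. It was at 14.44, 14.36 and 14.38 against 13.49, 11.65 and 14.30. Its signals were 22100, 20900 and 21400 against 11500, 3190 and 20200, so that the transgenic cultures were spread from nearly the non-transgenic level to a small part of it. The difference was -1.25 ± 0.57 (SE, limma adjusted p = 0.442), or 2.37-fold, -1.83 ± 0.44 without replicate 3 (limma adjusted p = 0.031) and -0.50 without replicate 2. The gene has 1 probe set.

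Adamts1, an antiangiogenic versicanase, was at 13.80, 13.51 and 13.36 against 13.32, 13.09 and 13.37, and its groups overlapped through replicate 3 (difference -0.29 ± 0.15, SE, limma adjusted p = 0.467). Adamts4, the other aggrecanase, was at 11.57, 11.33 and 11.21 against 11.34, 12.19 and 11.40, so that only transgenic replicate 2 was high (difference 0.27 ± 0.26, SE, limma adjusted p = 0.679). Adamts12 was at 13.24, 12.74 and 11.86 against 11.92, 11.43 and 12.08, where non-transgenic replicate 3 lay among the transgenic cultures (difference -0.80 ± 0.35, SE, limma adjusted p = 0.437). Adamts10, a protease tied to fibrillin microfibrils, differed by 0.09 ± 0.24 (SE, limma adjusted p = 0.896) over levels of 10.28 to 10.93. Adamts7 and Adamts8 lay under the filter on all arrays, at 4.66 to 6.40 and 4.39 to 5.80.

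**Figure D3:**
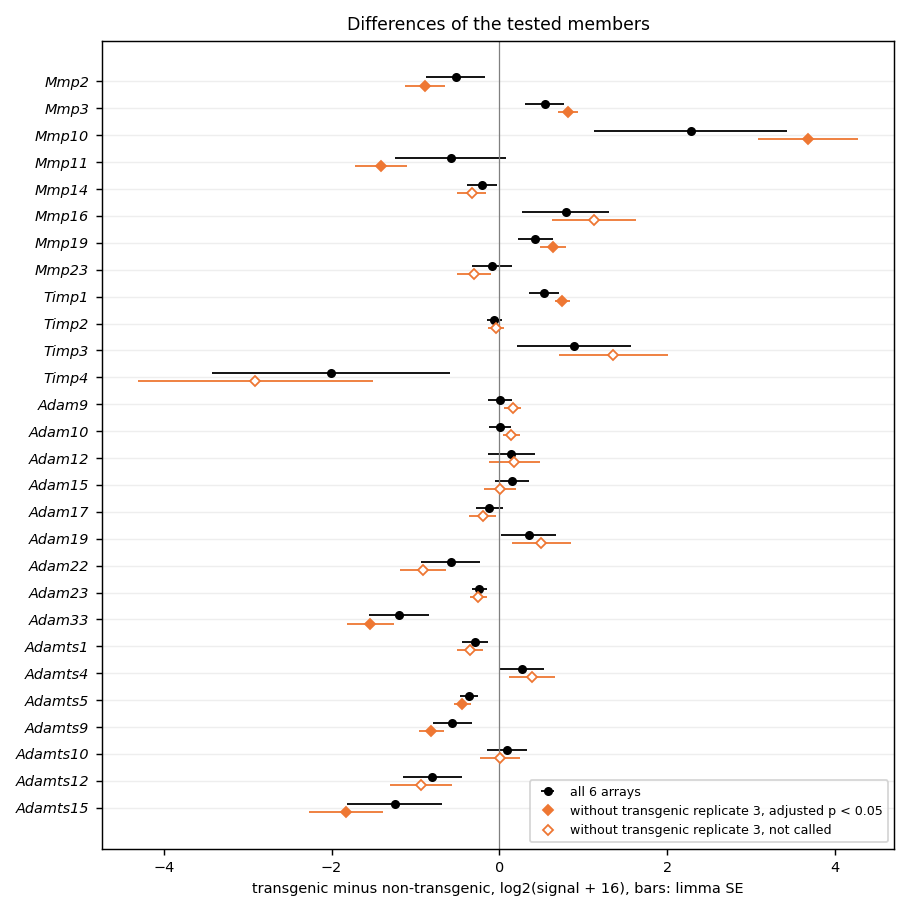
Transgenic minus non-transgenic difference of the 28 tested genes in log2(signal + 16), with limma SE bars, from all 6 arrays (black) and without transgenic replicate 3 (orange, filled where the adjusted p is under 0.05 over all 11208 genes). None is called with all arrays; 4 higher and 6 lower genes are called without replicate 3, and Mmp10 has the largest difference, at 2.28 and 3.68.

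The families were not compared by a test. The median difference was 0.17 over 8 tested MMPs (4 higher, 4 lower), 0.24 over 4 TIMPs (2 higher, 2 lower), 0.01 over 9 ADAMs (5 higher, 4 lower) and -0.36 over 7 ADAMTS genes (2 higher, 5 lower), against -0.02 over all tested genes. The median size was 0.53, 0.71, 0.15 and 0.36, against 0.24. Both MMP medians include Mmp10, at 2.28, which reached the test only through its transgenic cultures. The MMP median difference thus supports no direction for that family. The 33 genes were read by 73 probe sets. For 19 of the tested genes, 33 further probe sets lay above the filter, of which 5, in Timp2, Adam10, Adam15 and Adam23, had the opposite sign of the chosen one. Each of these 5 differed by no more than 0.25 in size.

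Genes around these proteases were read from 3 lists, beside shares of all tested genes of 6.47% higher and 5.02% lower at an unadjusted p under 0.05, and of 6.88% and 7.83% called without transgenic replicate 3. Of 39 other MMP, ADAM and ADAMTS genes, 29 were on the array and 6 were tested, of which 0 were called and 0 had an unadjusted p under 0.05. Adamts3, which trims procollagens, was at 10.36, 11.74 and 11.72 against 8.53, 8.16 and 11.46 (difference -1.89 ± 0.84, SE, limma adjusted p = 0.439) and was the 1 of these called without transgenic replicate 3, at -2.93 (limma adjusted p = 0.00711). Mmp24 differed by 0.21 ± 0.16 (SE, limma adjusted p = 0.586). Of 28 regulators and partners, 19 were tested and 0 called, and 1 had an unadjusted p under 0.05, namely Lgi4, a ligand of Adam22 and related ADAMs, at 8.94, 8.0 and 7.19 against 9.27, 9.24 and 9.35 (difference 1.25 ± 0.44, SE, limma adjusted p = 0.428). The next was Adamtsl3, an ADAMTS-like matrix protein without a protease domain, at -1.73 ± 0.75 (SE, limma adjusted p = 0.435), and at -2.72 without transgenic replicate 3 (limma adjusted p = 0.0024). Without transgenic replicate 3, 2 of the 19 were called higher and 7 lower. Of 30 known substrates, 24 were tested and 0 called, and 2 higher and 1 lower gene had an unadjusted p under 0.05. Decorin, Dcn, a collagen-binding proteoglycan, was at 14.15, 14.57 and 14.71 against 13.16, 11.79 and 14.18 (difference -1.44 ± 0.52, SE, limma adjusted p = 0.428). Its difference without transgenic replicate 3 was -2.01 (limma adjusted p = 0.0127). Tnfrsf1b, a TNF receptor shed by Adam17, differed by 0.51 ± 0.21 (SE, limma adjusted p = 0.428). Without transgenic replicate 3, 4 of the 24 were called higher and 1 lower.

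Markers of the labelled and of other cell types were measured on the same arrays. Only 6 of the 15 endothelial markers passed the level filter by their mean. These were Tek, Flt1, Emcn, Eng, Cd34 and Egfl7, with means of 8.74 to 12.23. The mean level of the 15, relative to the non-transgenic mean, was 0.39, -0.20 and -0.19 against 0.14, 0.34 and 0.16. Their summed signal was 10300 to 13400 against 12800 to 15700. Cdh5, whose promoter drives the transgene, was under the filter on every array. It was at 6.74 to 7.19 in the non-transgenic and 5.56 to 6.81 in the transgenic cultures. Pecam1 was under the filter on every array too, at 4.66 to 6.34. All 12 fibroblast markers lay above it by their mean over the arrays, and 11 did so in transgenic replicate 2. Their mean level relative to the non-transgenic mean was 0.08, -0.04 and -0.05 against -0.32, -0.78 and 0.04, and their summed signal was 141000 to 159000 against 119000 to 145000. Transgenic replicates 1 and 2 had the lowest list means, and they were also lowest for Mmp2, Adam33, Adamts9 and Adamts15. The 12 markers did not move as one. Dcn, Lum, Postn and Fap were lowest in those cultures, Thy1 was highest there, at 13.77 and 13.56 against 12.23 to 13.05 in the others, and Col1a1, at 13.90 and 14.23 against 13.68 to 14.18, was not lower. The 9 proliferation markers were at 0.52, -0.31 and -0.21 against 1.78, 2.12 and -0.17, with summed signals of 22000 to 27100 against 25600 to 62600, and thus highest in the cultures where Mmp3, Mmp10, Mmp13, Mmp19 and Timp1 were highest. The 15 macrophage and leukocyte markers were at 0.03, -0.25 and 0.22 against 0.26, 1.76 and -0.30, with 10 above the filter in transgenic replicate 2 against 4 or 5 on the other arrays and summed signals of 3280 to 4930 against 4850 to 22200. That culture was also the highest for Mmp10, Mmp13, Mmp16, Mmp19, Timp3, Adam12, Adam19 and Adamts4, and for Mmp9, which was under the filter on every array. In transgenic replicate 2 the defining leukocyte marker Ptprc was at 5.83, under the filter as on every array. Lyz2 was at 12.54 there against 9.25 to 10.37 on the others. These markers did not move as one either. Csf1r was higher in all 3 transgenic cultures, at 11.03, 10.49 and 10.59 against 8.94, 9.06 and 8.61. Cd53 was high in transgenic replicates 1 and 2, at 12.65 and 13.29 against 7.74 to 10.41 on the others. Cd14 was lowest in transgenic replicate 2, at 8.90. Of 4 neutrophil markers on the array, S100a8 was above the filter in transgenic replicates 1 and 2, at 8.38 and 9.83, and summed signals were 163 to 298 against 246 to 1120. Smooth muscle markers, at -0.34 to 0.35 against -0.20 to 0.40 (summed signals 25200 to 41300 against 28100 to 37300), and mesothelial and epithelial ones, at -0.77 to 0.44 against -0.59 to 0.56 (2220 to 4750 against 2060 to 5890), overlapped between the groups. The part of these cell types, and of cell division, in the protease and inhibitor values was not tested.

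**Figure D4:**
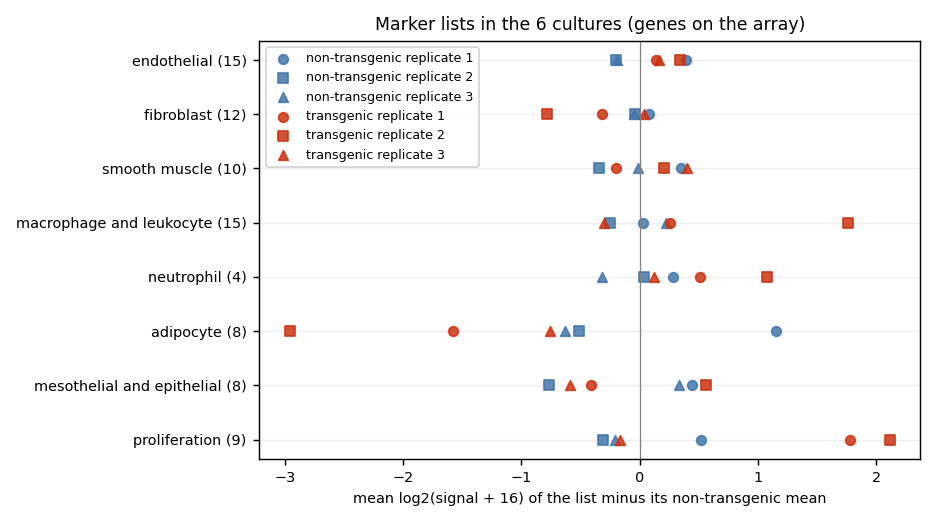
Mean log2(signal + 16) of 8 marker lists in the 6 cultures, relative to the list's non-transgenic mean (x axis, log2 units; number of genes on the array in brackets; blue non-transgenic, red transgenic, shape by replicate). Proliferation markers are highest in transgenic replicates 1 and 2 (1.78 and 2.12), macrophage and leukocyte markers in transgenic replicate 2 (1.76), and adipocyte markers range from 1.15 in non-transgenic replicate 1 to -2.96 in transgenic replicate 2.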

How the data were processed

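Total RNA (about 50 ng) of 6 cultures was amplified in 2 steps and hybridized to Affymetrix GeneChip Mouse Genome 430 2.0 arrays, per the series' design text. The authors deposited linear intensities per probe set, for which the submitters' processing notes name MAS5, and their array scaling was kept. No genome build is given in the sources used here.

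Values were computed as log2(intensity + 16). Of 45101 probe sets, 34945 (array controls left out) had 1 gene in the array annotation. Symbols followed RefSeq's mouse table by gene identifier for 34741 of them. Each of 18193 genes was read by its brightest probe set, and 11208 with a mean level of at least 7.72, the median of probe sets that are not controls, were tested two-sided with limma 3.58.1 in R 4.3.3 (lmFit, eBayes with a trend, Benjamini-Hochberg at 0.05). SEs are limma's moderated ones. The fit was tested on simulated data, in which each gene had the same spread on all arrays. That simulation held no culture that departs from its group as transgenic replicate 3 does. The number of arrays limits the precision.

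The members, lists and tests were chosen with earlier results of these data known. All members are named. The 2 genes of smallest p are named for each surrounding list. Same-numbered cultures of the groups did not deviate together (correlations of 0.042, -0.278 and -0.034), so no pairing was used. Alternatives were other pseudocounts, filters, scaling, probe set summaries, variance priors, array weights, a replicate block and each array left out.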

Additional observations from a re-analysis of the deposited data

How the results depend on the processing

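With all 6 arrays no listed gene was called under other pseudocounts, filters, quantile normalization, the mean of all probe sets, no variance trend or the replicate block, and 0 of all genes were. With array weights limma called 5504 of all 11208 tested genes and 15 of the 28 listed ones tested. In that fit 16 of the 28 had an unadjusted p under 0.05. It weighted transgenic replicate 1 at 5.24 and non-transgenic replicate 2 at 4.65 against 0.177 to 1.20 for the others. Without a variance trend 1 listed gene had an unadjusted p under 0.05. With each array left out in turn, genes called ranged from 0 to 1649, listed genes called from 0 to 10, listed genes at an unadjusted p under 0.05 from 2 to 13 and non-overlapping ones from 6 to 18, the upper values being those without transgenic replicate 3. With the replicate block, which the check of same-numbered cultures did not bear out, 0 listed genes were called, 8 had an unadjusted p under 0.05 and the median difference was -0.07. Shares of all genes at an unadjusted p under 0.05 are given above for the main fit with all 6 arrays. Counts of all genes are given there for the fit without transgenic replicate 3. For the other fits the numbers of listed genes at that threshold describe the list alone.

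Of 470 values of single listed genes under 15 alternatives, 25 became called and 17 of tested genes changed sign, and a further 5 changed sign in 3 of the 5 genes under the level filter. Quantile normalization gave 0.01 for Timp2 and -0.01 for Adam10, and the mean of all probe sets gave -0.07 for Adam10. Array weights gave 0.02 for Mmp23, 0.03 for Timp2, -0.14 for Adam12, -0.08 for Adam15 and -0.01 for Adamts10. With each array left out, differences ran from -0.08 to 0.16 for Adam9, -0.06 to 0.14 for Adam10, -0.12 to 0.35 for Adam12, -0.07 to 0.25 for Adamts10, 0 to 0.42 for Adamts4, -0.30 to 0.20 for Mmp23, -0.13 to 0.22 for Adam8, -0.19 to 0.69 for Adamts7 and -0.50 to 0.11 for Adamts8. The cause was not tested. Genes under the level filter have no test here, and 3 arrays per group limit the precision.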
